A study of Arabis alpina with 12 samples.

Results

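DNA methylation in young leaves of Arabis alpina, a perennial relative of Arabidopsis, was described from 1 list of 61122 enriched domains of 5-methylcytosine (5mC), out of 178416 domains of 4 marks in the series. All domains of the 5mC list were used, with no selection by score or length. Methylated DNA was immunoprecipitated with an antibody to 5mC and sequenced (MeDIP-seq). The plants were of the accession Pajares, grown in soil at 22.5 °C in days of 16 h light and nights of 8 h, and every library came from young leaves. The group of interest had 2 MeDIP libraries and 2 input libraries of DNA that was not immunoprecipitated, and mRNA was measured in 1 further library of the same tissue. No genotype or treatment was contrasted. The labels do not say whether the libraries came from separate plants, and the domains are given as 1 list for both MeDIP libraries, so that no value below carries a replicate error and no test between conditions was possible.

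Plants methylate cytosines in CG, CHG and CHH contexts (H is any base but G). Dense methylation in all of these contexts marks transposons and repeats and is maintained in part through small RNAs, while bodies of many transcribed genes carry methylation in the CG context alone. MeDIP recovers fragments of dense methylation regardless of context, and it does not give a methylation level per cytosine. Transposons lie mostly away from genes in plant chromosomes, but short copies also lie next to genes, where methylation is known to lower the transcription of some neighbours and to leave others as they are.

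Each domain has a position and a whole-number score of unstated meaning, which was divided by domain length and compared only within this list. The mRNA table gives 24657 genes, called listed genes below, each with its start, its end and its exon coverage as the table's name describes it. Coverage is never below 1 in this table, and 2185 genes hold exactly 1. Genes without mRNA signal may therefore be missing from it, and a domain far from any listed gene may still lie on a gene. Identifiers are not paired with gene names or strand, so genes are named by identifier, leaf marker genes could not be looked up, and the start and the end of transcription could not be told apart. Sequencing depth is unknown for all libraries.

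Most 5mC domains were short and lay close to another one. Median domain length was 600 bp, with quartiles of 300 and 1050 bp and a range from 150 to 17850 bp. Domains of a single 150 bp window made up 12.5% of the list and 2.01% of its bp. Domains of 5000 bp or more were 913 in number, 1.49% of the list, and held 10.3% of its bp. Domains of 1650 to 4950 bp held the largest part of the methylated sequence, 35.7% of bp in 13.5% of domains. The longest domain measured 17850 bp on scaff_73658_1 (41401 to 59250) and lay 13.6 kb from the nearest listed gene. The next, 15300 bp on chromosome 1 (23538001 to 23553300), lay 12.1 kb from one, and the next after it, 14700 bp on chromosome 2 (12852901 to 12867600), lay 44.9 kb from one. The scores per kb of these domains were 1094, 1168 and 1057, all above the median of the list.

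The gap from one domain to the next had a median of 1050 bp and quartiles of 450 and 3450 bp over 59142 neighbouring pairs. No gap was under 300 bp, and 21.6% of gaps were exactly 300 bp, the smallest value in the list. Gaps of 300 to 600 bp were 39.0% of the pairs but 4.14% of the bp between domains. Gaps over 10000 bp were 9.86% of the pairs and held 55.98% of those bp. When domains were joined across gaps of up to 600 bp, 38053 clusters resulted, of which 24960 (65.6%) were single domains. The cluster with the most members ran over 29.3 kb of chromosome 2 (11416651 to 11445900), with 19 domains, 22.5 kb of 5mC and no listed gene. Across gaps of up to 1500 bp, 38.6% of all domains belonged to clusters of 5 or more. The cluster with the most members under this limit ran over 72.8 kb of scaff_41929_1 (151 to 72900), with 37 domains and no listed gene.

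**Figure D1:**
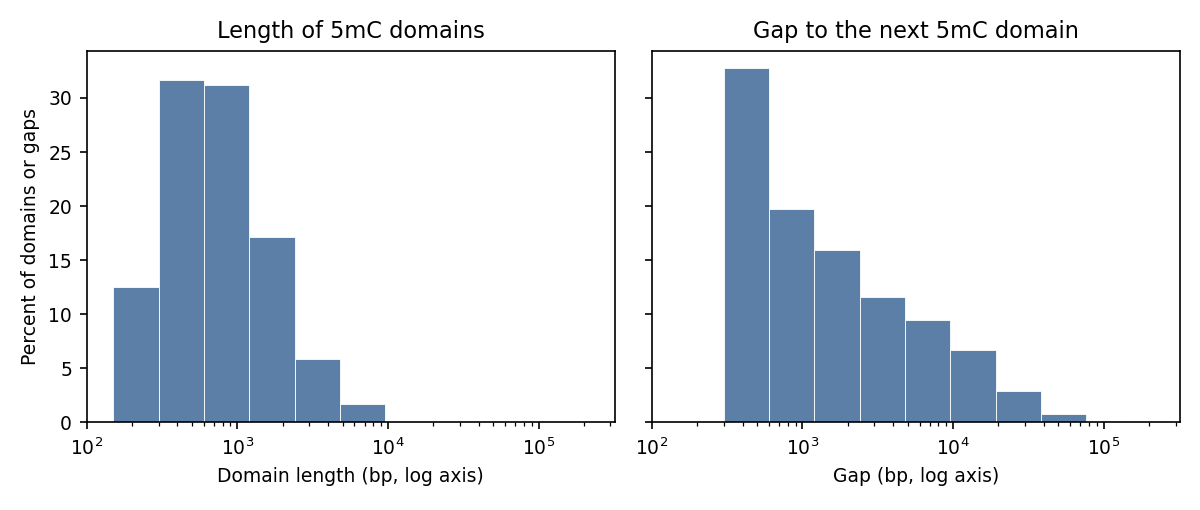
Length of the 5mC domains (left) and gap to the next domain on the same sequence (right), as percent of 61122 domains and 59142 gaps, in classes that double in width along a log axis. Lengths end at 17850 bp, while gaps start at 300 bp and reach 165000 bp.

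The widest stretches without a 5mC domain on the chromosomes were rich in listed genes. The widest, 165000 bp on chromosome 8 (31818901 to 31983900), held 37 listed genes over 62.1% of its bp. Their coverage ran from 1 to 81.8 with a median of 8.25. The next, 150450 bp on chromosome 1 (1019701 to 1170150), held 25 listed genes over 52.6% of its bp with a median coverage of 4.02. The next after it, 130200 bp on chromosome 8 (40033051 to 40163250), held 37 listed genes over 59.2% of its bp with a median coverage of 6.43. Of all 150 bp windows, 23.2% touched a listed gene, a share counted per window and not per bp. The median over all listed genes was 5.77, so these stretches had medians on both sides of it.

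Over the extent that could be counted, domains of 5mC were denser on unplaced scaffolds than on any of the 8 chromosomes, and nearly alike in length. Scaffolds held 315.03 domains per Mb with a median gap of 750 bp, and 5mC covered 31.1% of their extent. Length was counted to the furthest domain or listed gene, and scaffolds with neither were not counted. Densities and 5mC shares are therefore upper limits, and gaps cannot run past scaffold ends. How far this raised the scaffold values was not tested. The chromosomes held from 154.9 domains per Mb on chromosome 1 to 234.8 on chromosome 6, with median gaps of 1050 to 1350 bp. Median domain length was 600 bp on every chromosome and on the scaffolds. The median score per kb was also alike, from 662.2 on chromosome 7 to 683.3 on chromosome 5, and 677.3 on scaffolds. The sequences therefore differed in the number of domains per Mb and little in their length or score. Of 2992 scaffolds, 1310 held a 5mC domain and no listed gene, and 5mC covered 35.9% of their 21.1 Mb. Another 662 held both and had 29.8% in 5mC. For the 928 scaffolds with a listed gene and no 5mC, the furthest listed gene or domain end had a median of 1.04 kb. Their full lengths are unknown.

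Along the chromosomes, windows of 1 Mb differed widely in 5mC, and the number and spacing of domains differed with it. The window with the most lay on chromosome 2 (6000001 to 7000000), with 39.2% of its bp in 379 domains, a median gap of 750 bp and 25 listed genes. The window with the least lay on chromosome 3 (2000001 to 3000000), with 2.87% in 52 domains, a median gap of 11400 bp and 153 listed genes. Within a chromosome the richest window had between 3.73 times (chromosome 5) and 8.93 times (chromosome 3) the 5mC share of the poorest. The richest windows of the other chromosomes held between 25.5% (chromosome 5) and 37.3% (chromosome 7). The poorest window was the first Mb on chromosomes 1, 5, 6 and 8 and the last whole Mb on chromosomes 4 and 7. On chromosome 1 the last whole Mb (24000001 to 25000000) was instead the richest, at 29.9%.

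In the 58 windows with the least 5mC, domains numbered 94.3 ± 24.4 per Mb (SD, n = 58 windows), with a median length of 516 ± 84.4 bp and a median gap of 4293 ± 2193 bp. In the 58 windows with the most, they numbered 309.8 ± 38.1 per Mb (SD, n = 58 windows), with a median length of 614 ± 43.2 bp and a median gap of 891 ± 110 bp. The number of domains per window did not overlap within 1 SD of these means, and the median gap did not either, while the median lengths lay close together. The score per kb went the other way, with 732.0 ± 42.4 in the poorest and 655.1 ± 20.8 in the richest windows. Listed genes numbered 138.8 ± 25.1 and 50.7 ± 15.4 per window. The median mRNA coverage of these genes was 6.38 ± 0.88 and 5.61 ± 1.50, a difference smaller than the spread among the richest windows. Windows were ranked by their 5mC, and neighbouring windows are not independent, so these values describe 1 list and carry no test.

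Listed genes were poor in 5mC and the share of methylated sequence went up steadily with distance from them. Of 150 bp windows that touched a listed gene, 3.43% lay in a 5mC domain. The share was 6.28% in windows 0 to 500 bp from the nearest listed gene, 11.6% at 501 to 1000 bp, 15.3% at 1001 to 2000 bp and 20.8% at 2001 to 5000 bp. It reached 27.4% at 5001 to 10000 bp, 33.3% at 10001 to 20000 bp and 37.7% beyond 20000 bp. Over the whole extent it was 20.1%, which lay between the class of 1001 to 2000 bp and that of 2001 to 5000 bp. Each of the 8 chromosomes taken singly showed the same order of classes. Windows on genes ranged from 1.95% to 4.55% and those beyond 20000 bp from 32.6% to 38.7%.

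**Figure D2:**
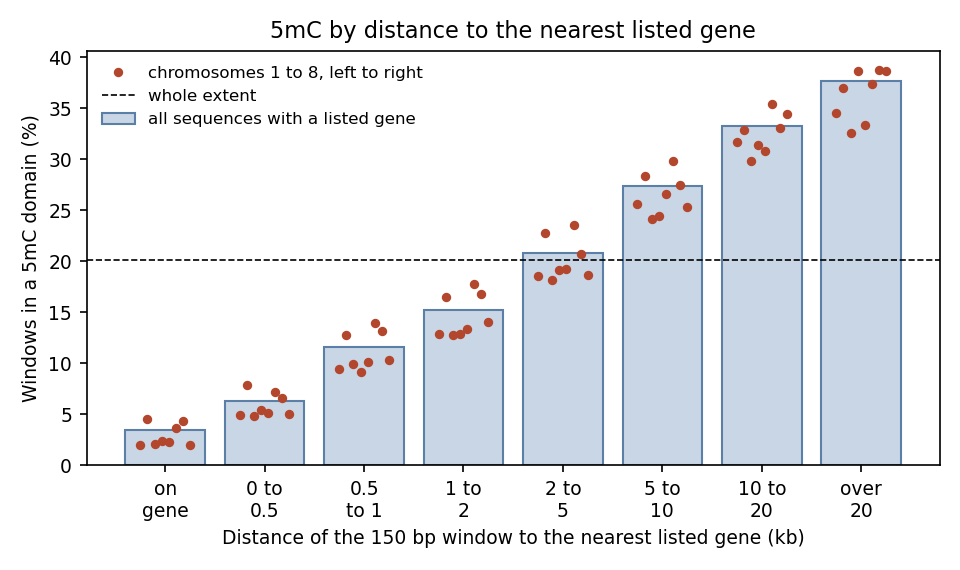
Percent of 150 bp windows inside a 5mC domain, by distance of the window to the nearest listed gene, for all sequences with a listed gene (bars) and for each chromosome (points); the dashed line is the share over the whole extent, 20.1%. The bars go from 3.43% on genes to 37.7% beyond 20 kb, and the points of the first and last classes do not overlap.

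Counted as domains, 4.43% of the list (2706, exact 95% interval 4.27% to 4.59%, counting error only) touched a listed gene. Another 2764 (4.52%) ended within 500 bp of one. Of all 150 bp windows, 23.2% touched a listed gene and 6.01% lay 0 to 500 bp from one. The shares of domains were 0.19 and 0.75 times these shares of windows. Domains were classed by their nearest edge and most are longer than a window, so these units are unlike. Of the 150 bp windows in a 5mC domain, 3.94% touched a listed gene and 1.88% lay 0 to 500 bp from one. Those shares were 0.17 and 0.31 times the shares of all windows. Of the 53399 domains on sequences with a listed gene, the median distance to it was 6589 bp, with quartiles of 2193 and 16045 bp. Beyond 10000 bp lay 38.1% of them, against 23.2% of all 150 bp windows on these sequences. The domain farthest from a listed gene was 174.5 kb away.

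Domains next to genes were isolated, short and of higher score per kb than those far from genes. The gap before a domain had a median of 4800 bp for domains 0 to 500 bp from a gene and 750 bp for those beyond 20000 bp. Domains of a single window made up 17.3% of the former and 11.3% of the latter, and domains of at least 2 kb made up 6.87% and 10.9%. Domains that touched a gene were neither as isolated nor as short, with a median gap of 1350 bp. Of these, 10.6% were single windows and 14.0% measured at least 2 kb, and their median score was 730 per kb. Median score per kb was 743.5 (quartiles 589.3 and 1003) within 500 bp of a gene and 638.1 (520.8 and 837.6) beyond 20000 bp. It was ordered by distance in between, with 720 at 501 to 1000 bp, 711.2 at 1001 to 2000 bp, 683.3 at 2001 to 5000 bp, 666.7 at 5001 to 10000 bp and 648.9 at 10001 to 20000 bp. The quartiles of all classes overlapped, so distance said little about a single domain. On each chromosome the median within 500 bp, at 706.7 or more, was above the median beyond 20000 bp, at 641.5 or less.

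Score per kb also differed with length, and short domains are frequent near genes. Its median was 793.3 for domains of 150 bp, 661.7 for 300 to 600 bp, 621.1 for 750 to 1500 bp and 1135 for 5000 bp or more. A domain of 150 bp has no score below 87 in this list, which sets a floor for the score per kb of short domains. Among domains of 300 to 600 bp the median was 713.3 within 500 bp of a gene and 633.3 beyond 20000 bp. Among domains of 750 to 1500 bp these values were 745.4 and 574.7. Among domains of 1650 bp or more they were 731.0 and 670.4. Single windows showed no such order, with 793.3 within 500 bp, 813.3 both at 1001 to 2000 and at 2001 to 5000 bp, and 773.3 beyond 20000 bp.

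Isolation went with score in the same way. Domains whose nearer neighbour was 300 bp away had a median score of 656.7 per kb, and 9.17% of them touched a listed gene or lay within 1000 bp of one. Domains whose nearer neighbour was over 10000 bp away had 780 per kb, and 43.6% of them touched or neighboured a gene. These isolated domains were few, 1503 or 2.47% of those with a neighbour. Over the whole list, 4.43% of domains touched a listed gene, 4.52% lay within 500 bp and 4.43% at 501 to 1000 bp. For all 150 bp windows, a unit unlike domains, these shares were 23.2%, 6.01% and 4.82%. Median length was 450 bp for the isolated domains and 750 bp for those with a neighbour 300 bp away. Score by isolation was not split by length.

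The intervals between neighbouring listed genes held 5mC according to their length. Of 6011 intervals of up to 500 bp, 74 (1.23%, exact 95% interval 0.97% to 1.54%) contained any 5mC. The share was 5.92% (4.95% to 7.03%) of 2076 intervals of 501 to 1000 bp, 13.5% (12.2% to 14.9%) of 2461 intervals of 1001 to 2000 bp and 33.4% (31.9% to 34.9%) of 3904 intervals of 2001 to 5000 bp. It was 63.6% at 5001 to 10000 bp, 87.2% at 10001 to 20000 bp and 98.8% at 20001 to 50000 bp. A longer interval has more room for a domain. The share of bp inside 5mC, which does not depend on room in that way, also went from 2.64% at 501 to 1000 bp to 7.65% at 2001 to 5000 bp, 18.5% at 10001 to 20000 bp and 35.0% beyond 50000 bp. The 558 intervals over 50000 bp held 15.7 Mb of 5mC, more than the 14.9 Mb of the 1872 intervals of 20001 to 50000 bp.

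The approach of 5mC to the ends of genes differed with their mRNA coverage close to the gene, and genes at coverage 1 stood above the others up to 5000 bp outward. Bases outside were counted for all genes, also those with 5mC on the span, so domains that cross a gene end are included. In the first 100 bp outside a gene, 5mC covered 12.4% of the bases next to genes with coverage 1. For 4 equal groups of the other genes, from lowest to highest coverage, it covered 3.73%, 2.15%, 1.61% and 1.03% there. At 401 to 500 bp these 4 groups were at 7.33%, 7.84%, 7.93% and 7.12%, and at 901 to 1000 bp at 11.8%, 12.0%, 12.8% and 12.5%. From 1001 to 2000 bp outward they held 14.2%, 14.3%, 15.1% and 14.96%, so the order by coverage was gone. Genes with coverage 1 had 14.0% at 401 to 500 bp, 15.9% at 901 to 1000 bp and 18.0% from 1001 to 2000 bp.

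Inside the genes the difference was the largest in proportion. In the outermost 300 bp, 5mC covered 11.4% of genes with coverage 1, and 3.04%, 1.39%, 0.80% and 0.61% of the 4 groups from lowest to highest coverage. At 901 to 1000 bp from the nearer end, genes with coverage 1 had 17.9% and the group of highest coverage had 0.45%. Only the longer genes reach this far from both ends, so these values and those of the outermost 300 bp cover different sets of genes. On these values, genes with coverage 1 had about as much 5mC on the span as in the first 1000 bp outside (14.1%). The group of highest coverage had 6.64% over the first 1000 bp outside. Sides of genes could be told apart only by coordinate. Each such side mixes starts and ends of transcription, so like values do not speak to a difference between these. Of the 21958 genes with a domain on their sequence and none on the span, 5.92% had a domain within 500 bp on the low-coordinate side and 6.21% on the high-coordinate side.

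**Figure D3:**
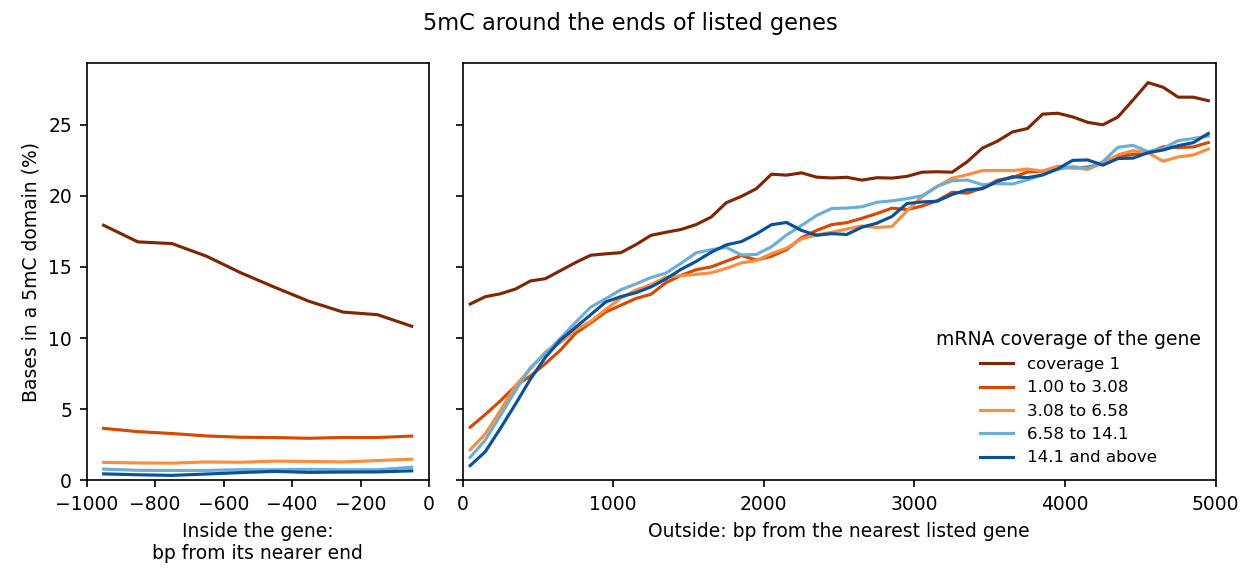
Percent of bases in a 5mC domain, in steps of 100 bp, inside listed genes (left, distance from the nearer end) and outside (right, distance from the nearest listed gene), for genes with mRNA coverage 1 and for 4 equal groups of the other genes by coverage. The 4 groups run together from about 500 bp outward, and genes with coverage 1 lie above them up to 5000 bp, where the plot ends.

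Genes with 5mC on the span had low mRNA coverage, and genes with 5mC next to them did not. The 1722 listed genes with at least 1 bp of 5mC on the span (6.98%, exact 95% interval 6.67% to 7.31%) had a median coverage of 2.38, with an order-statistic 95% interval of 2.14 to 2.56 and quartiles of 1 and 6.38. The 2568 genes with a domain 0 to 500 bp away and none on the span had a median of 6.76 (6.30 to 7.15, quartiles 3.17 and 14.0). At 501 to 1000 bp the median was 6.28 (5.91 to 6.68), at 1001 to 2000 bp 6.15 (5.84 to 6.48) and at 2001 to 5000 bp 5.86 (5.63 to 6.12). At 5001 to 10000 bp it was 6.26 (6.04 to 6.52), at 10001 to 20000 bp 6.13 (5.87 to 6.42) and beyond 20000 bp 6.71 (6.28 to 7.19). These 7 classes without 5mC on the span lay on both sides of their joint median of 6.20, and their quartiles overlapped almost wholly. All 7 lay above the 5.77 of all listed genes. That median is lowered by the genes with 5mC on the span and by those on sequences without a domain, at 2.93. Intervals here cover the spread over genes of 1 library, and genes are not replicates. In a whole leaf, 5mC or mRNA in fewer cells and a lower level per cell cannot be told apart.

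On the scale of log2(median coverage + 1), genes with 5mC on the span were at -1.06 relative to all genes without it. The difference was -0.60 among genes with coverage above 1, and -1.79 when 5mC had to cover 50% of the span. Genes with a domain within 500 bp were at 0.088 relative to those over 5000 bp from a domain. The range around this difference, -0.036 to 0.194, was formed from the outer ends of the separate 95% intervals of both medians. It is wider than a 95% interval of the difference, so the 0 inside it does not show that the groups were equal. Coverage of 1 was held by 28.0% of genes with 5mC on the span (exact 95% interval 25.9% to 30.2%), 5.26% of those within 500 bp (4.43% to 6.19%) and 6.13% of those over 5000 bp away (5.63% to 6.66%). Over all listed genes the share was 8.86%. On the 8 chromosomes taken singly, the median on the span ran from 2.31 to 3.56 and the median within 500 bp from 5.95 to 7.53, without overlap.

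**Figure D4:**
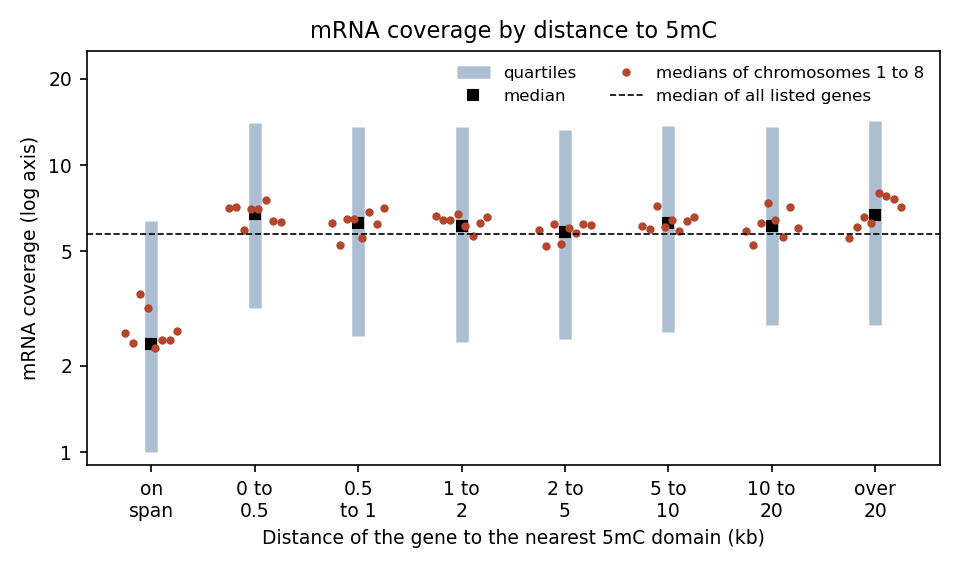
Median mRNA coverage (squares) and quartiles (bars) of listed genes by distance to the nearest 5mC domain, with the median of each chromosome as a point and the median of all listed genes, 5.77, as a dashed line; the vertical axis is logarithmic. Genes with 5mC on the span sit at 2.38, and the 7 classes without it lie between 5.86 and 6.76, on both sides of their joint median of 6.20.

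The low median of genes with 5mC on the span was present at every gene length. Among the shortest of 4 equal groups by span (113 to 1373 bp) the medians were 2.35 on the span and 5.85 within 500 bp. In the next groups, in order of span, they were 2.80 and 7.62, then 2.25 and 6.89, then 2.21 and 6.50. Genes longer than 3124 bp made up 788 of the 1722 genes with 5mC on the span, and their median coverage was as low as that of shorter ones.

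Distances below 500 bp showed no steady order. The 342 genes with a domain 0 to 100 bp away had a median coverage of 5.59 (order-statistic 95% interval 5.16 to 6.73), and the 497 at 101 to 200 bp had 7.54 (6.28 to 8.25). At 201 to 300 bp the median was 6.06 (5.61 to 7.11), at 301 to 400 bp 7.28 (6.64 to 8.13) and at 401 to 500 bp 6.81 (6.04 to 7.65). The share of genes with coverage 1 was 7.60% in the nearest of these classes and between 3.99% and 7.08% in the others.

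Genes with 5mC on 1 side and on both sides were close in coverage. With a domain within 1000 bp on 1 side, 4550 genes had a median of 6.49 (6.20 to 6.82), and with one on both sides 366 genes had 6.44 (5.59 to 7.65). With none within 1000 bp, 17042 genes had 6.14 (6.01 to 6.26). Within 500 bp on both sides, 94 genes had a median of 5.89 (3.85 to 9.34), an interval too wide to place them. The highest coverage among these 94 was that of Aa_G172150 on chromosome 4 (15554111 to 15557717), with 159.9 and domains 160 and 283 bp from its ends. Aa_G289310 on chromosome 6 (15221226 to 15222878) followed with 106.7 and domains 275 and 472 bp away.

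The score and the length of the neighbouring domain were also set against coverage. For the 2568 genes with a domain within 500 bp, the lowest of 4 equal groups by score per kb of that domain (308.9 to 595) had a median coverage of 6.95 (6.13 to 7.72). The next groups had 6.72 (5.96 to 7.52) and 7.47 (6.71 to 8.02), and the group with the highest score (1027 to 4457) had 5.96 (5.51 to 6.48). The interval of the group with the highest score lay below that of the group before it and overlapped those of the others, so the medians were not ordered by score. By length of that domain, the medians were 6.80 for 150 to 300 bp, 6.04 for 450 bp, 6.96 for 600 to 900 bp and 6.76 for 1050 bp and longer, with no order.

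Genes with 5mC beside them lie in longer intervals, so genes were also compared next to intervals of like length. A gene was counted for the interval on either side, so the classes share genes. One next to an interval without 5mC may have 5mC on its other side. Next to intervals of 2001 to 5000 bp, genes with no 5mC on the span had a median coverage of 6.62 (6.25 to 7.04) where the interval held 5mC and 6.07 (5.80 to 6.29) where it did not. Next to intervals of 5001 to 10000 bp these medians were 6.24 (5.99 to 6.64) and 5.70 (5.40 to 6.13). At 10001 to 20000 bp they were 6.02 and 5.60, and at 1001 to 2000 bp 6.29 and 6.25. At 501 to 1000 bp they were 6.20 (4.91 to 7.39) for 172 genes and 6.68 for 3585. At 1 to 500 bp they were 4.95 (3.22 to 8.38) for 36 genes and 6.60 for 9739. The 95% intervals of both medians overlapped in each of these 6 classes, narrowly at 2001 to 5000 bp. Such overlap does not show that the medians were equal, and the differences were not tested. The difference in log2(median coverage + 1), with 5mC minus without, was between 0.0074 and 0.11 from 1001 to 20000 bp and negative in both shorter classes, -0.094 and -0.35. Beyond 20000 bp 44 genes next to intervals without 5mC and 2 in the longest class were too few to compare.

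Genes far from methylated sequence were not of especially high coverage. The 66 genes over 50 kb from any domain had a median of 6.53 (4.92 to 9.06) and a maximum of 182.2, at Aa_G239130 on chromosome 2 (27714414 to 27717408), 51042 bp from the nearest domain. Aa_G228400 on chromosome 1 (1107793 to 1108606) followed with 107.1, 61544 bp from the nearest domain, inside the stretch of 150450 bp without 5mC named above. The 977 genes on scaffolds with no 5mC domain had a median of 2.93 (2.47 to 3.29) and a median span of 869 bp. On these scaffolds the furthest listed gene or domain end had a median of 1.04 kb. Full lengths are unknown, and a distance to 5mC could not be given for these genes.

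The part of the span covered by 5mC went with coverage step by step. The 505 genes with under 10% of the span in 5mC had a median coverage of 4.85 (4.46 to 5.49). Genes with 10% to 25% covered had 3.20 (2.82 to 3.77), and those with 25% to 50% had 2.21 (1.93 to 2.74). The 231 genes with 50% to 75% and the 201 with 75% to under 100% both had a median of 1, the lowest value listed. Coverage of 1 was held by 9.31% of genes in the first class (6.92% to 12.2%), 20.2% in the second, 27.1% in the third, 51.1% in the fourth and 58.7% (51.6% to 65.6%) in the fifth.

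The 89 genes that lay wholly inside 5mC broke this order, with a median of 1.31 (1 to 1.68) and 40.4% at coverage 1. Of these, 10 lay in 1 domain of chromosome 2 (2339401 to 2353500), which had the highest score per kb of the list, 13135, or 19.5 times the median. Their coverage ran from 9.10 to 464.6 with a median of 232.3. The other 79 genes wholly inside 5mC had a median of 1.21 (1 to 1.5) and a maximum of 42.7, and 45.6% of them were at coverage 1. Leaving these 10 genes out moved the median of all genes with 5mC on the span from 2.38 to 2.33.

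**Figure D5:**
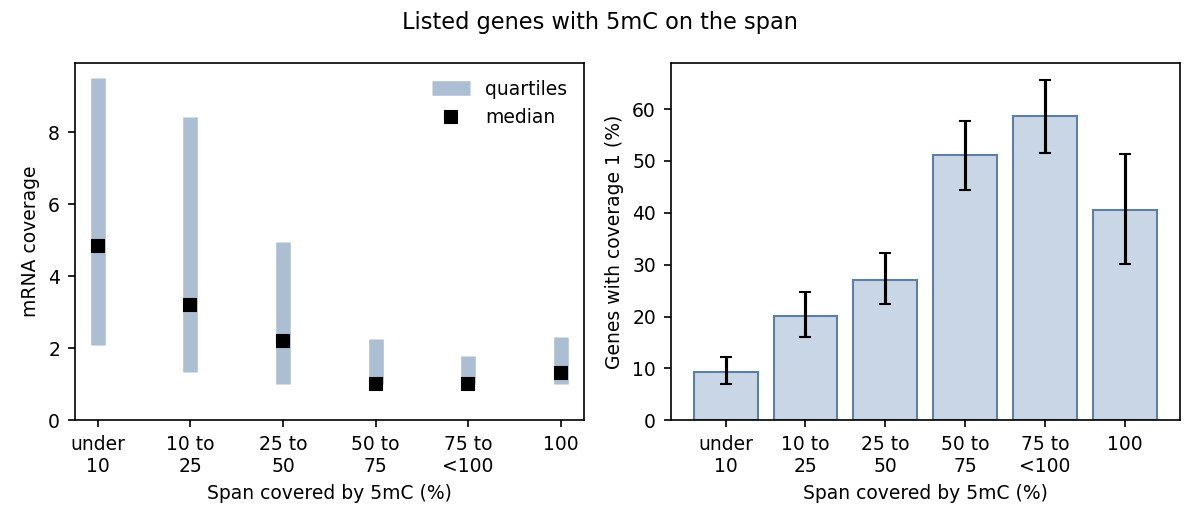
mRNA coverage of the 1722 listed genes with 5mC on the span, by percent of the span covered: median and quartiles (left), and percent of genes at coverage 1 with exact 95% binomial intervals (right). The median goes from 4.85 under 10% covered to 1 from 50% to under 100%, and genes wholly inside 5mC, at 1.31, include the 10 genes of the domain with the highest score per kb.

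Position within the gene also went with coverage. Of 1173 genes of at least 2000 bp with 5mC on the span, 34.3% (exact 95% interval 31.6% to 37.1%) had it only in the interior, with none in the outermost 300 bp of either end. In 46.9% it reached 1 end and in 18.8% both ends. Median coverage was 4.30 (3.68 to 4.87) for interior 5mC, 2.41 (2.14 to 2.82) for 5mC at 1 end and 1 (1 to 1) for 5mC at both ends, against 6.32 (6.19 to 6.48) for the 11865 genes of that length without 5mC. The classes differed in how much of the span was covered, with medians of 10.9%, 21.9% and 77.6%.

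Among genes with under 25% of the span covered, the 310 with interior 5mC had a median coverage of 4.97 (4.32 to 5.94), below that of genes without 5mC. The 297 with 5mC at 1 end had 3.60 (3.06 to 4.50), and 14.8% of them were at coverage 1, against 11.9% of those with interior 5mC and 5.08% of those without 5mC. Among genes with 25% or more covered, the medians were 2.70 (1.97 to 3.42) for interior 5mC, 1.52 (1.25 to 1.81) at 1 end and 1 at both ends. Both ends with under 25% covered occurred in 12 genes. The 95% intervals of interior 5mC and 5mC at 1 end overlapped under 25% covered, where the median cover was 7.60% and 7.05% of the span. They did not overlap at 25% or more, where the median cover also differed, 36.2% against 49.98%.

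Coverage was high in single genes with 5mC on the span. The highest, Aa_G237140 on chromosome 7 (15310778 to 15316318), had a coverage of 793.0 with 300 bp of 5mC, 5.41% of its span. Aa_G288930 on chromosome 2 (2342633 to 2343737), with 464.6, was 100% inside the domain of highest score per kb. Of the 2706 domains that touched listed genes, 60.3% lay wholly within gene spans.

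The scores of most domains lay within a narrow range. The 10th and the 90th percentile of score per kb were 460 and 1210, a ratio of 2.63, and 14 domains exceeded 5000 per kb. The 611 domains of highest score held 11.6% of the summed score and 7.11% of the bp in domains.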

How the data were processed

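Per the submitters' processing notes, the tools were Bowtie, which aligns reads, and SICER, which calls broad domains of enrichment. For the versions, parameters, genome build, treatment of reads that align to several places and any combining of replicates, no statement is given in the sources used here. The authors deposited 1 domain list per mark, with a whole-number score per domain of unstated unit, and 1 table of mRNA coverage per gene, a signal whose scaling is not stated per the file headers or labels. The other marks' lists served only to count domains and to set sequence lengths. Domain starts were read as 0-based and ends as inclusive, which makes every start and length a multiple of 150 bp. Printed coordinates count from 1 on the assembly of the authors. Distances are bases between edges, and sequence length is the furthest domain or gene end (284.4 Mb over 3000 sequences). Distance functions were tested on simulated intervals. Medians carry order-statistic 95% intervals and shares exact binomial ones, for counting error only. With 1 list and 1 mRNA library no p-value was computed. Regions named are the 3 longest domains, the 3 widest stretches without 5mC and the extreme 1 Mb windows, and genes named are up to 2 of highest coverage per set. The limit of 50 kb, the largest clusters and the domain of highest score per kb were added after values were seen. Members, classes and lists were chosen with earlier results of these data known. Python 3.11.15, numpy 2.4.6, pandas 2.3.3 and scipy 1.17.1 were used.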

Additional observations from a re-analysis of the deposited data

How the results depend on the processing

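Of 46 alternative values, 17 stayed within the interval of the value reported, 29 moved outside it and none changed sign past an interval that excluded 0. Median length was 599 bp with half-open ends, 1050 bp in the upper 50% of domains by score and 900 bp after joining across 600 bp. Median gap was 1200 bp on the 8 chromosomes alone, 2400 bp in the upper 50% by score, 3750 bp in the upper 50% by score per kb and 1800 bp among domains of at least the median length. Median score per kb was 638.7 among the latter. Median distance to a gene was 6257 bp on chromosomes, 5606 bp for the upper 50% by score per kb, 7005 bp for domains of at least the median length, 7063 bp from midpoints and 7548 bp to genes with coverage above 1. The percent of domains on a gene was 4.63, 5.26, 4.66, 3.47 and 2.87 in that order. The score difference near minus far from genes, 105.4 per kb, was 128.5 for domains of at least the median length and 80.0 in domains of 300 to 600 bp, the latter chosen after seeing the data.

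The log2 difference of coverage with 5mC on the span was -0.96 on chromosomes, -1.37 with domains of at least the median length, -0.60 among genes above coverage 1, -1.29 with 200 bp and -1.79 with 50% of the span required, -1.31 with a pseudocount of 0.1 and -0.81 in the shortest of 4 equal groups by span. The difference within 500 bp against over 5000 bp stayed between -0.0051 (upper 50% by score per kb) and 0.12. Intervals of 2001 to 5000 bp with 5mC were 22.8% with the upper 50% by score per kb and 31.9% with genes above coverage 1. No paired analysis was possible because the deposited list gives no values per replicate, so neither a replicate block nor leaving out replicates was run. Depth is unknown and limits what a missing domain means.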
